A study of Mus musculus with 7 samples.

Results

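Receptors for leptin, insulin and other hormones of energy balance were followed in 2 neuron types of the embryonic mouse arcuate nucleus, a ventral hypothalamic region that governs feeding. The set held 10 genes chosen by symbol: the cytokine-type receptors Lepr, Il6st, Cntfr, Ghr and Prlr, the receptor tyrosine kinases Insr and Igf1r, and the G protein-coupled receptors Ghsr, Mc3r and Mc4r. All 10 were among the 18331 uniquely named genes of the deposited table, and none was absent. The first group was 4 libraries of Pomc neurons, which make the precursor of appetite-suppressing peptides. They were compared with 2 libraries of Npy neurons, which make the appetite-stimulating neuropeptide Y. All neurons were sorted by fluorescence from arcuate nuclei dissected at E15.5, and each library was made from 1 ng of total RNA. No source used here gives the genotype, strain or sex of the embryos, the reporter used in the sort or the number of embryos behind a library. P-values therefore measure only the spread between these libraries, which may be technical.

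The column of Npy replicate 3 was left out, because in all 15223 genes above 0 in Npy replicate 1 or 2 it equals their mean times a whole percent between 95 and 105 (within 1e-04 percentage points). Values were read as TPM (a transcript level corrected for gene length and library total), so levels of different genes can be compared. Genes above 0 numbered 12493 to 14656 in the Pomc libraries and 14933 and 12922 in the Npy libraries. Pomc stood at 770.2, 352, 397 and 553 TPM in the Pomc libraries, against 24.0 and 59.4 TPM in the Npy libraries. Npy stood at 152, 2.11, 81.0 and 54.2 TPM in the Pomc libraries, against 728 and 513 TPM in the Npy libraries. Neither gene overlapped between the groups, and each was higher in the population it names, with Npy lowest in Pomc replicate 2. The 8 pan-neuronal markers summed to 4789 to 5492 TPM in the Pomc libraries, against 4159 and 3386 TPM in the Npy libraries. The 6 markers of oligodendrocyte precursors summed to 0.444 to 2.64 TPM in the Pomc libraries, against 228 and 207 TPM in the Npy libraries. All 6 were called higher in the Npy libraries, beside 0.123% of all tested genes. They met the filter given below only through the Npy libraries, where they were high. Olig2 and Cspg4 were listed at 0 in every Pomc library. The 4 markers of the ventromedial nucleus, the neighbouring region, summed to 269.7 to 382 TPM in the Pomc libraries, against 24.1 and 20.7 TPM in the Npy libraries. Of the 4, 2 were called higher in the Pomc libraries, beside 0.289% of all tested genes. Sox14, at 4.38 and 0 TPM in the Npy libraries, met the filter through the Pomc libraries. Nkx2-2 overlapped, at 10.9, 3.18, 5.84 and 20.9 TPM in the Pomc libraries, against 7.97 and 15.4 TPM in the Npy libraries. The 6 microglial markers summed to 43.0 TPM in Pomc replicate 4 and to at most 2.27 TPM in the other Pomc libraries, against 3.79 and 9.97 TPM in the Npy libraries. The 8 markers of radial glia and astrocytes summed to 638 TPM in Pomc replicate 4 and to 257 to 336 TPM in the other Pomc libraries, against 602 and 404 TPM in the Npy libraries. The part of these other cells in the results below was not tested.

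In the adult arcuate nucleus, leptin from fat acts through its receptor and JAK-STAT signalling to raise Pomc and to restrain Npy and Agrp. Insulin and insulin-like growth factors act through receptor kinases, insulin receptor substrates and the PI3 kinase and AKT pathway. Ghrelin from the stomach acts on Npy neurons through Ghsr, and peptides cut from the Pomc precursor act on Mc3r and Mc4r, where Agrp opposes them.

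The 10 genes fell into 2 ranges of level, and the promoters of 4 of them are shown because they differ in CpG content; these 4 were chosen after the counts were seen. The 4 receptors Cntfr, Insr, Igf1r and Il6st reached at least 21.6 TPM in every library of both groups. The other 6, Ghr, Mc3r, Prlr, Mc4r, Lepr and Ghsr, stayed at or under 4.94 TPM in every library. Promoter sequences were taken from the RefSeq table for GRCm38.p6, which matched 8 of the 10 genes. It held none for Insr, of the higher range, or Mc4r, of the lower. The 120 bases before the annotated start are given 5′ to 3′ on the gene's strand, with each CpG dinucleotide in capitals, first for 2 genes of the higher range (Igf1r at chr7:67952137-67952256, plus strand, and Il6st at chr13:112463950-112464069, plus strand) and then for 2 of the lower range (Ghsr at chr3:27371231-27371350, plus strand, and Mc3r at chr2:172248372-172248491, plus strand).
Igf1r: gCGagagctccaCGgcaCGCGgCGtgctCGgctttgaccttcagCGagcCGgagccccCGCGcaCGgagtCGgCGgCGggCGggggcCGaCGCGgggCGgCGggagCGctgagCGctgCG
Il6st: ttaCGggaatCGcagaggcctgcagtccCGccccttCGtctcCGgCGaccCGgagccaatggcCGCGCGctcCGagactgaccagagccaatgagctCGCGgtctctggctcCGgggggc
Ghsr: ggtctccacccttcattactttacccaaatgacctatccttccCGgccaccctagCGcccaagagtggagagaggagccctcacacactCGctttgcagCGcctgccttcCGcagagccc
Mc3r: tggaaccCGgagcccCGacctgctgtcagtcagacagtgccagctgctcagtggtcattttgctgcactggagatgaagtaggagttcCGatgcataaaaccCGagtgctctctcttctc
These stretches hold 23 CpG in Igf1r and 14 in Il6st, against 5 in Ghsr and 4 in Mc3r. The Igf1r stretch belongs to a RefSeq start upstream of the GENCODE gene start given below (67952827), and the others end directly before their GENCODE starts. Over 250 bases, Igf1r held 42 CpG, which is as many as or more than in 99.3% of 32851 promoters, and Il6st held 26 (91.4%). Cntfr has 6 annotated starts, whose windows held 3 to 37 CpG (37.8% to 98.1%). The windows of the lower range held 2 to 17 CpG. There were 11 in Ghsr (66.5%), 12 in Mc3r (68.5%) and 10 at both starts of Lepr (64.4%). Ghr held 8 and 17 (59.7% and 78.3%), and Prlr held 2, 2 and 6 (29.0%, 29.0% and 53.7%). The median over all promoters was 6. The files give no start site usage, so which of the alternative starts these neurons used is unknown.

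**Figure D1:**
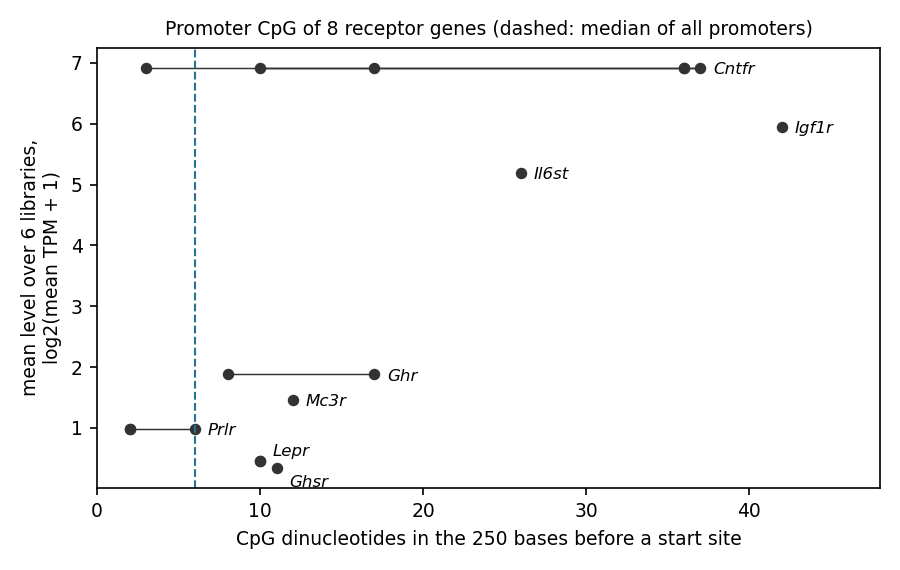
Number of CpG dinucleotides in the 250 bases before each annotated start site (horizontal axis) against the log2 of mean TPM + 1 over the 6 libraries (vertical axis) for the 8 receptor genes with a promoter in the RefSeq table; a line joins the start sites of 1 gene and the dashed line is the median of all promoters, 6. Igf1r and Il6st lie at 42 and 26 CpG, Cntfr spans 3 to 37, and the 5 receptors of low level lie at 2 to 17.

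No receptor gene passed the threshold, an adjusted p of 0.05 (limma on log2(TPM + 1), Benjamini-Hochberg over 13845 tested genes). Of all tested genes, 57 passed, which is 0.412%. Npy, which names 1 of the sorted populations, did not pass (log2 fold change, Pomc minus Npy, -4.00 ± 1.25, SE; limma adjusted p = 0.418). The filter, 1 TPM in at least 2 libraries, kept 7 receptors (Cntfr, Insr, Igf1r, Il6st, Ghr, Prlr and Mc3r) and left out 3 (Lepr, Ghsr and Mc4r). At an unadjusted p under 0.05 there was 1 receptor, Cntfr, where 7.36% of all tested genes reached this. The groups did not overlap in 2 of the 7 tested receptors, Cntfr and Prlr, where 15.9% of all tested genes did not overlap. Prlr met the filter through Pomc libraries alone. Ghsr, which was not tested, also did not overlap, and the share of 15.9% does not cover genes left out by the filter. In bulk libraries, fewer cells with a transcript and less transcript per cell cannot be told apart. The median log2 fold change (Pomc minus Npy) of the 7 was 0.17, beside a median of 0.015 over all tested genes. With 4 against 2 libraries the smallest p of a two-sided exact permutation test is 0.0667.

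**Figure D2:**
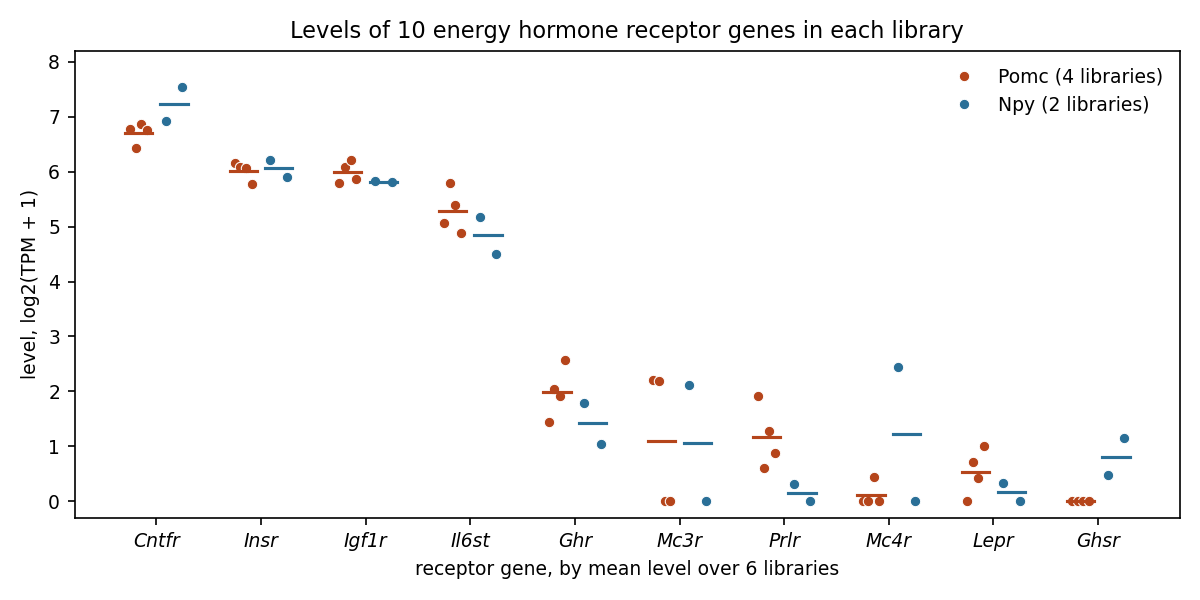
Level of each receptor gene in each library as log2(TPM + 1), with Pomc libraries on the left of each pair (4 points, replicates 1 to 4 from left to right) and Npy libraries on the right (2 points); bars are group means of the log2 values. Cntfr, Insr, Igf1r and Il6st lie at 21.6 TPM or more in every library, and the other 6 genes at 4.94 TPM or less.

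Among the cytokine-type receptors, Cntfr was the most abundant of the 10 genes in both groups. It encodes the binding subunit for ciliary neurotrophic factor, has no signalling domain of its own and works with Il6st and Lifr (chromosome 4, 41657498 to 41697089, GRCm38, minus strand). Cntfr stood at 108, 85.1, 116 and 107 TPM in the Pomc libraries, against 120.5 and 185 TPM in the Npy libraries. Each Npy library lay above all 4 Pomc libraries, although Npy replicate 1 exceeded Pomc replicate 3 by little. The log2 fold change was -0.53 ± 0.23 (SE; 95% interval -1.05 to -0.01; limma unadjusted p = 0.0482, adjusted p = 0.672). It was -0.22 without Npy replicate 2 and -0.83 without Npy replicate 1 (limma adjusted p = 0.999 and 0.275), so the size rested on which Npy library was kept. Its mean level over the 6 libraries exceeded that of 90.9% of all genes. The oligodendrocyte precursor markers were also at their higher level in both Npy libraries. They summed to 228 TPM in Npy replicate 1 and 207 TPM in Npy replicate 2, the reverse of the order of Cntfr. The part of such cells in the Cntfr values was not tested.

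Il6st encodes gp130, the signalling chain shared by receptors for interleukin-6 family cytokines (chromosome 13, 112464070 to 112510086). It stood at 32.3, 54.2, 40.9 and 28.4 TPM in the Pomc libraries, against 35.3 and 21.6 TPM in the Npy libraries. The groups overlapped, and the log2 fold change of 0.44 ± 0.36 had a 95% interval of -0.38 to 1.25 (limma adjusted p = 0.851). The value depended on Npy replicate 2, without which it was 0.09, and on Npy replicate 1, without which it was 0.78. Lifr, the other signalling chain of the Cntfr complex, named here after its values were seen, stood at 13.8, 5.36, 4.69 and 13.1 TPM in the Pomc libraries, against 8.75 and 2.22 TPM in the Npy libraries (limma adjusted p = 0.862). All 3 chains of that receptor were thus above 2 TPM in each of the 6 libraries.

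Lepr, the leptin receptor (chromosome 4, 101717404 to 101815352, plus strand), was near the bottom of the table in both groups. It stood at 0.00958, 0.637, 0.346 and 1.00 TPM in the Pomc libraries, against 0.26 and 0.0103 TPM in the Npy libraries. By its mean over the 6 libraries it lay above 19.6% of all genes, a share that includes genes listed at 0 throughout. The groups overlapped, Pomc replicate 1 and Npy replicate 2 were close to 0, and the highest value was in Pomc replicate 4. That library also had the highest sums of the microglial and of the radial glia and astrocyte markers. Of the latter sum, 638 TPM, Vim alone held 530 TPM. Pomc replicate 2, with Lepr at 0.637 TPM, had the lowest radial glia and astrocyte sum, 257 TPM. The part of such cells in the Lepr values was not tested. Lepr was not tested because it reached 1 TPM in a single library. The difference of mean log2(TPM + 1) was 0.36, and the exact permutation test gave p = 0.4 (two-sided, 15 splits). A gene-level value does not separate the long, signalling form of Lepr from the short ones.

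Ghr, the growth hormone receptor (chromosome 15, 3317760 to 3583492), was low and present in every library. It stood at 1.72, 3.10, 2.76 and 4.94 TPM in the Pomc libraries, against 2.48 and 1.06 TPM in the Npy libraries. The groups overlapped, and the highest value was again in Pomc replicate 4. The log2 fold change was 0.57 ± 0.66 (95% interval -0.93 to 2.07; limma adjusted p = 0.886). It was 0.38 without Pomc replicate 4, 0.95 without Npy replicate 1, 0.19 without Npy replicate 2 and 0.32 with a replicate block. Such a block groups libraries by replicate number, so only replicates 1 and 2 of both groups set its estimates. With a pseudocount of 5 it was 0.26.

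Prlr, the prolactin receptor (chromosome 15, 10177238 to 10349180), had 2.79, 0.515, 1.43 and 0.844 TPM in the Pomc libraries, against 0.245 and 0 TPM in the Npy libraries. Every Pomc library lay above both Npy libraries. With a pseudocount of 1 and no replicate block it had the fold change farthest from 0 of the 7 tested receptors, a log2 value of 1.01 ± 0.68 (95% interval -0.52 to 2.55; limma adjusted p = 0.813). With a pseudocount of 5 it was 0.31, and Cntfr (-0.51) and Il6st (0.39) lay farther from 0. With a replicate block it was 1.10, and Mc3r was at 1.13. The exact permutation test gave p = 0.133 (two-sided, 15 splits). It met the filter through 2 Pomc libraries alone, and without Pomc replicate 1 or 3 it was not tested. The pseudocount set its size: the log2 fold change was 2.77 with 0.1 and 0.31 with 5 in place of 1. Exons of Prlr overlap those of Gm21973 on the same strand, which has no row in the deposited table, so its reads are uncertain to that extent.

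Both receptor tyrosine kinases were abundant and close in level. Insr, the insulin receptor (chromosome 8, 3122061 to 3279617, minus strand), stood at 70.6, 66.6, 66.3 and 53.4 TPM in the Pomc libraries, against 73.6 and 59.0 TPM in the Npy libraries. The Npy libraries spanned nearly the same range as the Pomc libraries. The log2 fold change was -0.04 ± 0.23 with a 95% interval of -0.56 to 0.48 (limma adjusted p = 0.978). Igf1r, the receptor for insulin-like growth factors (chromosome 7, 67952827 to 68233668, plus strand), stood at 54.6, 67.0, 73.4 and 57.0 TPM in the Pomc libraries, against 55.8 and 55.1 TPM in the Npy libraries. Pomc replicates 2, 3 and 4 lay above both Npy libraries and Pomc replicate 1 below both, and the log2 fold change was 0.17 ± 0.23 (95% interval -0.35 to 0.69; limma adjusted p = 0.905). These intervals are narrower than those of the receptors of low level, and neither reached a log2 difference of 1 in either direction. Gene-level values do not separate the exon 11 forms of Insr.

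**Figure D3:**
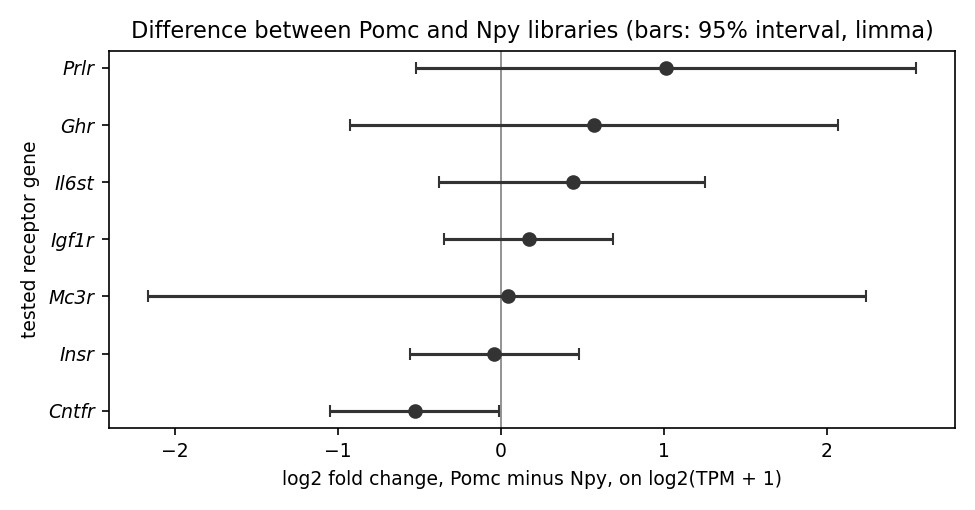
Log2 fold change (Pomc minus Npy, on log2(TPM + 1)) of the 7 tested receptor genes; points are limma estimates and bars their 95% intervals. The intervals of Insr and Igf1r stay within 0.69 of 0, that of Cntfr ends at -0.01, and those of Mc3r, Prlr and Ghr are the widest.

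In order of mean level in the Pomc libraries, Cntfr (104 ± 13.2 TPM, SD, n = 4) came first and its range lay above all others. Insr (64.2 ± 7.45 TPM) and Igf1r (63.0 ± 8.78 TPM) followed with overlapping ranges, and the range of Il6st (38.9 ± 11.4 TPM) overlapped that of Insr. Ghr (3.13 ± 1.34 TPM), Mc3r (1.79 ± 2.07 TPM) and Prlr (1.39 ± 1.00 TPM) overlapped each other, as did Prlr and Lepr (0.499 ± 0.423 TPM), and Lepr and Mc4r. Ghsr was listed at 0. In the Npy libraries the order of the highest 4 genes was the same by mean, from Cntfr at 153 TPM through Insr at 66.3 and Igf1r at 55.4 to Il6st at 28.5 TPM. The ranges of these 4 did not overlap. Below them came Mc4r, Ghr, Mc3r, Ghsr, Lepr and Prlr, and neighbours in that order overlapped except Ghsr and Lepr.

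The 3 G protein-coupled receptors appeared in some libraries and not in others. Ghsr, the ghrelin receptor (chromosome 3, 27371351 to 27378010), was listed at 0 in all 4 Pomc libraries, against 0.39 and 1.22 TPM in the Npy libraries. Both Npy libraries thus had a value where no Pomc library did, and the exact permutation test gave p = 0.0667 (two-sided), the smallest value the design allows. Ghsr reached 1 TPM in a single library and was not tested in the fit. With no filter on low values its log2 fold change was -0.81 ± 0.26 (limma adjusted p = 0.579). That setting kept genes above 0 in at least 1 library, and Ghsr entered through the Npy libraries alone. Its 4 Pomc values have no spread, which keeps that SE small.

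Mc3r, a melanocortin receptor known from arcuate neurons of both types (chromosome 2, 172248492 to 172251114), had 3.61, 3.55, 0 and 0 TPM in the Pomc libraries, against 3.36 and 0 TPM in the Npy libraries. The 3 libraries with a value lay close together, and the other 3 were listed at 0, in both groups. The log2 fold change was 0.04 ± 0.98 (95% interval -2.17 to 2.24; limma adjusted p = 0.994), an interval that spans large differences in both directions. Mc4r, the melanocortin receptor whose loss causes obesity (chromosome 18, 66857704 to 66860506), had 0, 0, 0.357 and 0 TPM in the Pomc libraries, against 4.46 and 0 TPM in the Npy libraries. Npy replicate 1 alone held most of the signal, and the exact permutation test gave p = 0.333 (two-sided, 15 splits).

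The depth behind these low values was estimated from the table itself. Where a gene has 1 annotated transcript, its TPM multiplied by its exon length should be a whole multiple of what 1 read is worth, and this held for 53.5 to 65.7% of low values in the Pomc libraries and 68.1 and 53.7% in the Npy libraries (within 0.05 reads). Each step was chosen for the highest share, so these shares are favourable. With these steps, Mc3r rested on about 149, 97, 0 and 0 reads in the Pomc libraries, against about 107 and 0 reads in the Npy libraries. Mc4r rested on about 0, 0, 13 and 0 reads in the Pomc libraries, against about 152 and 0 reads in the Npy libraries. Ghsr rested on no read in the Pomc libraries, against about 21 and 79 reads in the Npy libraries. Libraries of 1 group therefore differed for Mc3r and Mc4r by about 100 or more reads against none. Lepr rested on about 1, 47, 32 and 88 reads in the Pomc libraries, against about 22 and 1 reads in the Npy libraries, with the union of the exons of its 7 transcripts as its length. The estimate depends on the exon lengths of GENCODE, which may not be those the authors used, and reads amplified from 1 ng of RNA are not independent molecules.

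**Figure D4:**
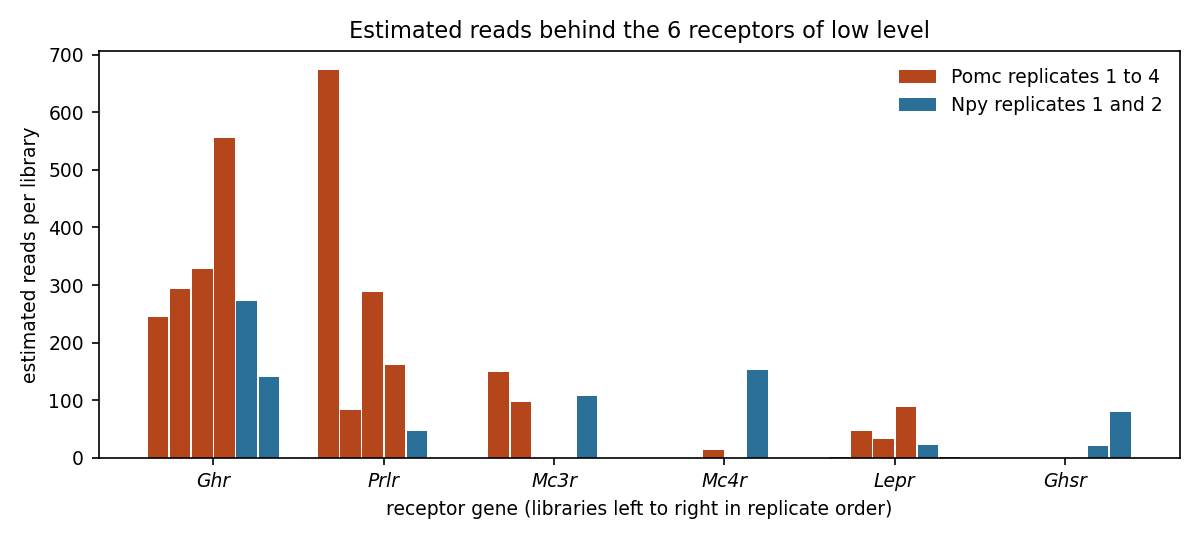
Estimated reads per library for the 6 receptor genes of low level; for each gene the first 4 bar positions are Pomc replicates 1 to 4 and the last 2 Npy replicates 1 and 2, and a missing bar is 0 or 1 read. Mc3r has 97 to 149 reads in 3 libraries and none in the other 3, Mc4r has 152 in Npy replicate 1 and 13 in Pomc replicate 3, and Ghsr has reads in the Npy libraries and none in the Pomc libraries.

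Genes of the same pathways were described through 9 lists of 106 genes, of which 94 were in the table and 79 were tested. Of these, 1 was called higher in Pomc neurons, Pomc itself, which names the sorted population, and none higher in Npy neurons; among all tested genes 0.289% were called higher in Pomc neurons and 0.123% in Npy neurons. At an unadjusted p under 0.05 there were 6 of the 79, beside 7.36% of all tested genes. The median log2 fold change over the 79 was 0.18, beside 0.015 over all tested genes. Of the 79, 58 lay above 0, beside 51.3% of all tested genes. The median over all tested genes was -0.034 after rescaling without short RNA genes, 0.1 without Npy replicate 1 and -0.075 without Npy replicate 2. The median of the pathway genes was not computed in those settings.

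Of the 15 ligand genes, 9 were in the table and 3 were tested. Pomc, the source of the melanocortin peptides, had a log2 fold change of 3.67 ± 0.39 (limma adjusted p = 0.00454). The call ended with a replicate block (adjusted p = 0.0667) and with a prior variance common to all genes (0.0625). Agrp, which blocks melanocortin receptors, stood at 1.03, 3.67, 6.82 and 0 TPM in the Pomc libraries, against 5.53 and 1.75 TPM in the Npy libraries (limma adjusted p = 0.927). Igf1 and Igf2, growth factor ligands of Igf1r named here after their values were seen, were at most 1.31 TPM for Igf1 and, outside Npy replicate 2, at most 0.433 TPM for Igf2. Igf2 stood at 9.90 TPM in Npy replicate 2, the library in which the pericyte and fibroblast markers had their highest sum, 29.5 TPM, of which Cspg4, also a precursor marker, held 17.5 TPM. The part of such cells in this value was not tested.

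Of the 13 coreceptors and related receptors, 8 were tested and none passed; no member reached an unadjusted p under 0.05. Igf2r, the receptor that clears IGF2 and sorts lysosomal enzymes, stood at 67.5, 74.8, 67.8 and 59.1 TPM in the Pomc libraries, against 58.2 and 68.0 TPM in the Npy libraries. Its level was close to those of Insr and Igf1r. Leprotl1, a relative of a gene linked to leptin receptor trafficking, stood at 46.8, 52.2, 45.8 and 21.6 TPM in the Pomc libraries, against 44.1 and 18.5 TPM in the Npy libraries, with 1 low library in each group. Il11ra1, which binds interleukin-11 and signals through Il6st, stood at 1.36, 1.52, 6.01 and 2.21 TPM in the Pomc libraries, against 16.2 and 2.13 TPM in the Npy libraries (limma adjusted p = 0.836).

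Of the 12 other energy hormone receptors, 7 were tested and none passed. Calcr, the calcitonin receptor, which also forms amylin receptors, stood at 71.5, 73.0, 102.7 and 63.8 TPM in the Pomc libraries, against 185 and 134 TPM in the Npy libraries. Every Npy library lay above every Pomc library. The log2 fold change was -1.03 ± 0.25 (95% interval -1.59 to -0.47; limma unadjusted p = 0.0024, adjusted p = 0.222; adjusted p of 0.0357 to 0.618 over the alternatives, the lowest with the computed Npy column counted as a replicate). Adipor1, an adiponectin receptor, stood at 93.7, 47.9, 77.8 and 37.8 TPM in the Pomc libraries, against 59.9 and 96.2 TPM in the Npy libraries. Those values overlapped.

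**Figure D5:**
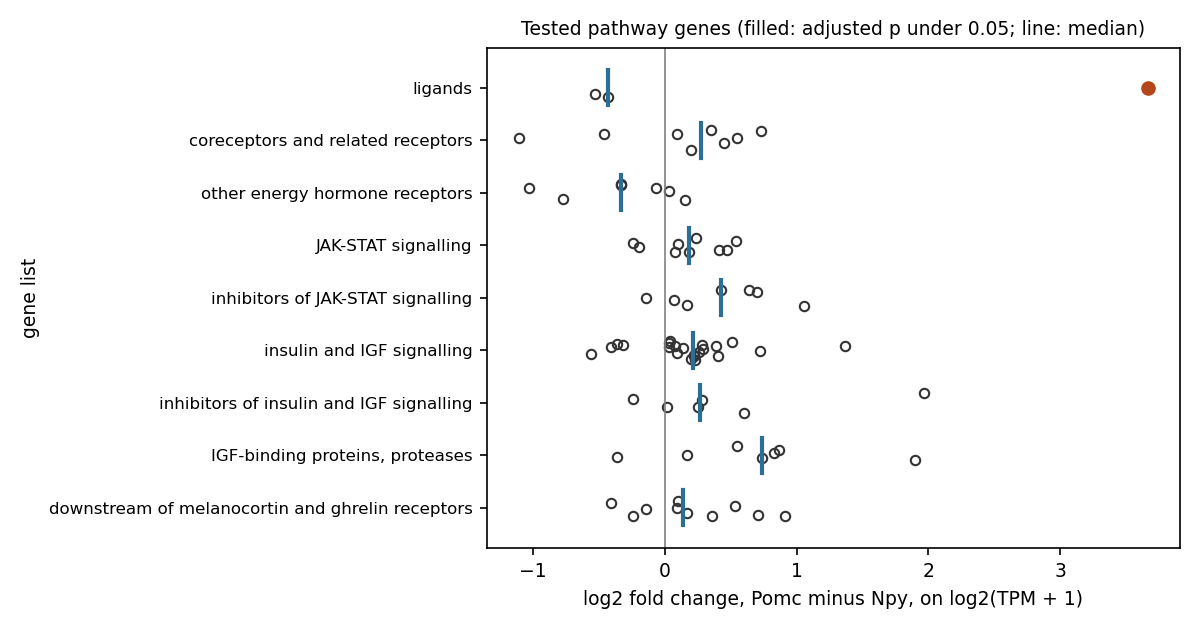
Log2 fold change (Pomc minus Npy, on log2(TPM + 1)) of the tested genes of 9 pathway lists, 1 list a row; open points are genes that did not pass an adjusted p of 0.05, the filled point is the gene that did, and vertical bars are list medians. Pomc at 3.67 is the filled point, and the list medians lie between -0.43 and 0.74.

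The JAK-STAT genes, which act directly below the cytokine-type receptors, were present in both groups. Of 9 members 9 were tested and none passed (limma, none at an unadjusted p under 0.05). Jak2, the kinase bound to Lepr, Ghr and Prlr, stood at 75.0, 70.8, 87.4 and 76.9 TPM in the Pomc libraries, against 72.2 and 42.4 TPM in the Npy libraries. Jak1 (63.8 ± 14.4 TPM in the 4 Pomc libraries, 54.7 and 33.5 TPM in the Npy libraries) and the phosphatase gene Ptpn11 (98.4 ± 10.6 TPM in the Pomc libraries, 88.8 and 83.5 TPM in the Npy libraries) lay in the same range. Both kinase genes were thus at 33.5 TPM or more in libraries in which Lepr was at 1.00 TPM or less.

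Of the 7 inhibitors of JAK-STAT signalling, none passed (limma, none at an unadjusted p under 0.05). Ptpn1, a phosphatase that acts on JAK2 and the insulin receptor, stood at 93.6, 101.2, 96.2 and 81.5 TPM in the Pomc libraries, against 86.6 and 89.7 TPM in the Npy libraries. Socs3, the feedback inhibitor induced by leptin in the adult hypothalamus, stood at 7.52, 19.0, 4.66 and 11.6 TPM in the Pomc libraries, against 5.98 and 2.64 TPM in the Npy libraries, with a log2 fold change of 1.06 ± 0.68 (limma adjusted p = 0.807). It was 0.59 without Npy replicate 2. Socs2 averaged 24.5 ± 7.46 TPM in the Pomc libraries and had 16.3 and 13.2 TPM in the Npy libraries. STAT factors bind the motif TTCNNNGAA, which reads the same on both strands. In their 300 bases, 250 before the start site and the rest after it, 8.3% of the promoters in the RefSeq table hold this motif. Among the receptors with a promoter it was found at 1 of 3 starts of Prlr and in none of the others. Among the inhibitors it was found in Socs3 and Cish, and not in Socs1, Ptpn1 or Pias3. No match in Cish lay wholly in the 250 bases before its start site. Insr, Mc4r, Socs2 and Ptpn2 had no promoter in the RefSeq table and were not searched. The Socs3 match lies in these 80 bases, shown because that gene is the known readout of leptin signalling (chr11:117969477-117969556, minus strand, motif in capitals).
Socs3: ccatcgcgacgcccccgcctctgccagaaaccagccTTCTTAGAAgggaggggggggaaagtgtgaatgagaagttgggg
The match is a description of these bases and shows no binding.

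Genes that act below Insr and Igf1r had values in both groups. Of 22 members of insulin and IGF signalling, all were tested and none passed, with a median log2 fold change of 0.21. Akt1, a kinase activated through PI3 kinase, stood at 255, 222, 171 and 163 TPM in the Pomc libraries, against 132 and 172 TPM in the Npy libraries. Gsk3b, a kinase that AKT inhibits, stood at 190.5, 223, 227 and 249.8 TPM in the Pomc libraries, against 187 and 182 TPM in the Npy libraries. Foxo1, a factor that insulin signalling keeps out of the nucleus and that represses Pomc in adult neurons, stood at 13.1, 13.1, 13.8 and 10.9 TPM in the Pomc libraries, against 5.07 and 3.63 TPM in the Npy libraries. All Pomc libraries lay above both Npy libraries, and the log2 fold change of 1.37 ± 0.50 had a 95% interval of 0.23 to 2.51 (limma unadjusted p = 0.0234, adjusted p = 0.564).

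Of the 7 inhibitors of this pathway, 6 were tested and none passed. Grb10, an adaptor that binds and inhibits Insr and Igf1r, stood at 104, 88.2, 91.3 and 122 TPM in the Pomc libraries, against 54.1 and 80.1 TPM in the Npy libraries (log2 fold change 0.60 ± 0.24; limma unadjusted p = 0.0327, adjusted p = 0.61). The groups did not overlap, and the log2 fold change was 0.32 without Npy replicate 1 and 0.88 without Npy replicate 2. Grb14, a relative of Grb10, stood at 18.3, 10.1, 18.7 and 50.1 TPM in the Pomc libraries, against 18.7 and 0.523 TPM in the Npy libraries. Its log2 fold change of 1.97 ± 0.98 rested on Npy replicate 2, without which it was 0.12.
Of the 11 IGF-binding proteins and their proteases, 7 were tested and none passed. An unadjusted p under 0.05 was reached by 2 of the 7, beside 7.36% of all tested genes. Igfbp5, which binds and holds IGFs, stood at 157, 93.0, 85.6 and 117 TPM in the Pomc libraries, against 68.4 and 55.4 TPM in the Npy libraries (log2 fold change 0.83 ± 0.27; limma unadjusted p = 0.0136, adjusted p = 0.467). Pappa2, a protease that cleaves IGF-binding proteins, stood at 3.03, 3.57, 2.04 and 3.25 TPM in the Pomc libraries, against 0.115 and 0 TPM in the Npy libraries (limma unadjusted p = 0.0141, adjusted p = 0.475). Pappa2 met the filter through the Pomc libraries alone, and its log2 fold change of 1.90 was 4.36 with a pseudocount of 0.1 and 0.65 with 5. Neither gene's groups overlapped, which also held for 15.9% of all tested genes. Igfbp2 averaged 108 ± 59.6 TPM in the Pomc libraries and had 49.2 and 65.0 TPM in the Npy libraries.

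Of the 10 genes below the melanocortin and ghrelin receptors, 10 were tested and none passed (limma, none at an unadjusted p under 0.05). Gnas, the stimulatory G protein subunit through which Mc3r and Mc4r act, stood at 479, 463, 378 and 456 TPM in the Pomc libraries, against 335 and 354 TPM in the Npy libraries. The groups did not overlap, and the log2 fold change was 0.36 ± 0.17 (limma adjusted p = 0.71). Prkacb, a catalytic subunit of the cAMP-dependent kinase, averaged 200.1 ± 4.41 TPM in the Pomc libraries and had 244 and 198 TPM in the Npy libraries. Prkaa2, a catalytic subunit of the energy sensor AMPK, stood at 19.3, 15.8, 11.9 and 31.7 TPM in the Pomc libraries, against 11.6 and 7.57 TPM in the Npy libraries (limma adjusted p = 0.781).

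The tested genes most like 2 of the receptors were found by Pearson's r of log2(TPM + 1) over the 6 libraries, as a description. For Cntfr, the receptor of highest level, they were Ube4b (r = 0.991), Pfkfb3 (0.988) and C78339 (0.985), and 24 genes had an r over 0.95. For Prlr, taken for its fold change at a pseudocount of 1, they were Impdh1 (0.982), Zbtb12 (0.978) and Hebp2 (0.976), and 21 genes had an r over 0.95. With 6 libraries that share their group means, such values are reached by many genes.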

How the data were processed

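The authors deposited 1 table of 18335 symbols with 7 sample columns. The TPM values deposited by the authors were scaled by gene length and library before deposit; the header names no unit, and TPM was inferred because 6 columns sum to 1000000. Per the submitters' processing notes, HISAT2, edgeR 3.8 and mm10 were used, with no role given; no source used here gives the counter, annotation, strand use or lengths. The 4 rows with repeated symbols were left out. Pomc replicates 1 to 4 and Npy replicates 1 and 2 were compared with limma 3.58.1 (R 4.3.3, trended prior variance, two-sided) on log2(TPM + 1) for genes reaching 1 TPM in at least 2 libraries, checked on simulated data. Fold changes are Pomc minus Npy on that scale and understate changes of low genes. Positions are from GENCODE vM21 (GRCm38, the mm10 assembly). Short RNA genes took 10.8 to 13.1% of TPM in the Pomc libraries and 14.1 and 17.3% in the Npy libraries. Named were the 10 receptors and, per list, each gene past the threshold, the 2 of highest mean level and the 1 farthest from 0 that did not pass; others are marked, and 1 gene that the rule names is not reported here. Members and lists were chosen with earlier results of these data known. A 0 says no more than that the gene is listed at 0.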

Additional observations from a re-analysis of the deposited data

Results flagged for a closer look

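Among 35 named genes and 2 library measures, 1 stood out in the Pomc group, where a single library lay far from the other 3; chance gives about 1 in 20. Mc4r was at 0.357 TPM in Pomc replicate 3 and listed at 0 in the other 3 Pomc libraries, so that any value above 0 would stand out and the chance rate does not apply.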

How the results depend on the processing

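No receptor passed the threshold in any of the 15 alternatives run. The count over all genes was 57, and it was 37 with a pseudocount of 0.1, 33 with no filter on low values and 205 with all 7 columns. It was 22 to 69 with 1 library left out. The replicate numbers give no stated pairing (deviations of same-numbered libraries correlated at -0.044 and -0.033). A replicate block leaves Pomc replicates 3 and 4 without an Npy partner, so its estimates rest on replicates 1 and 2 of each group. With this block the count over all genes was 12, and 0 in place of 1 pathway gene passed. That pathway count was also 0 with a common prior variance, and 2 with all 7 columns, where Calcr joined Pomc (limma adjusted p = 0.0357). Of the receptors, Insr changed sign to 0.06 with the replicate block and Mc3r to -0.09 with all 7 columns; with 1 library left out, Insr ranged from -0.20 to 0.11 and Mc3r from -1.03 to 1.10. Leaving out 1 library also turned signs of pathway genes, with ranges of -1.15 to 0.10 for Agrp, -0.02 to 0.20 for Igf2r, -2.34 to 0.12 for Il11ra1, -0.29 to 0.02 for Prkacb, -0.16 to 1.06 for Leprotl1 and -0.66 to 0.01 for Adipor1. None of these was called, and the cause was not tested. With 1 Npy library left, it is assumed to vary like the Pomc libraries. When 5 TPM in 3 libraries was required, 4 receptors were tested. Lepr, Ghsr, Mc3r and Mc4r rest on at most 152 estimated reads in any library.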
